A study of Rattus norvegicus with 6 samples.

Results

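The pyruvate dehydrogenase complex and the kinases that switch it off were followed in rat tibialis anterior muscle after delayed nerve repair. Members were all probe sets annotated with the single symbol Pdk2, Pdk4, Pdha1, Pdhb, Dlat or Dld, which gave 7 of the 15923 probe sets on the array, 3 for kinases and 4 for subunits. They stood for 5 of the 6 genes, and of 10411 named genes on the array, because no probe set carried the symbol Dlat, and Dlat was not analysed here. The muscles came from 3 male Wistar rats whose peroneal nerve had been cut and its end stitched to the biceps femoris. Their stated age of 8 weeks is read here as the age when the nerve was cut. The nerve stumps were joined 4 weeks later, and the rats lived for 8 weeks, read here as the time after the repair. The ipsilateral muscles (n = 3) are those of the operated leg, and the contralateral muscles (n = 3) those of the other leg of the same animals, so the control is a muscle of an operated and anesthetised animal, not of an unoperated rat. The titles number the animals 4, 5 and 6.

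Pyruvate dehydrogenase is a large mitochondrial enzyme complex that turns pyruvate from glycolysis into acetyl-CoA for the citric acid cycle. It holds a decarboxylase of alpha and beta chains (encoded by Pdha1 and Pdhb), a transacetylase core (Dlat) and a dihydrolipoamide dehydrogenase (Dld). Pyruvate dehydrogenase kinases phosphorylate serines of the alpha chain and inactivate the complex, and the phosphatases encoded by Pdp1 and Pdp2 reverse this. In skeletal muscle Pdk2 and Pdk4 are main kinase genes, and Pdk4 is known for its induction in fasting, when muscle spares glucose and burns fatty acids.

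Each array gave 1 intensity per probe set, on a linear scale on which the authors' values have a trimmed mean of 150.05 on every array. Median intensities ran from 61.4 to 63.2 in ipsilateral and from 60.3 to 66.6 in contralateral libraries. In bulk muscle RNA, fewer cells of a type and less RNA per cell cannot be told apart. Differences are the log2 ipsilateral minus the log2 contralateral value after adding a pseudocount of 15.8, which understates differences of dim probe sets, and their standard error (SE) and 95% interval come from limma over 3 pairs. Of 9519 probe sets bright enough to test, 0 passed a Benjamini-Hochberg adjusted p of 0.05 in limma and 605 (6.36%) had an unadjusted p under 0.05. All 7 members were bright enough to be tested.

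Pdk2 was lower in the ipsilateral muscle of every animal on both of its probe sets, Pdk4 had no common direction, and the 95% interval of each subunit probe set spanned 0. No member passed the adjusted threshold in limma. At an unadjusted p under 0.05 there were 2 of the 7, both probe sets of Pdk2 and both lower, where 2.78% of all tested probe sets were lower at that level. The probe sets of Pdk2 share a gene and a GenBank record, so they are not independent measurements of its transcript.

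The brighter probe set of Pdk2, 1367892_at, had intensities of 1102.5, 743.2 and 835.3 in the ipsilateral muscles of animals 4, 5 and 6, against 1205.2, 1486.5 and 1036.0 in their contralateral muscles. Each ipsilateral value was below its own partner, but the groups overlapped, since ipsilateral 4 was above contralateral 6. The ipsilateral level was 91.5%, 50.0% and 80.6% of the contralateral one in animals 4, 5 and 6. The means were 894 ± 187 ipsilaterally and 1243 ± 228 contralaterally (SD, n = 3 each). The log2 difference was -0.47 (SE 0.18, 95% interval -0.88 to -0.07), with an unadjusted p of 0.0273 and a Benjamini-Hochberg adjusted p of 0.73 in limma. Without animal 5 the difference was -0.22.

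The dimmer probe set of Pdk2, 1386975_at, had intensities of 333.1, 70.7 and 153.4 in ipsilateral 4, 5 and 6, against 487.6, 277.8 and 287.5 in contralateral 4, 5 and 6. The lowest of the 6 values was that of ipsilateral 5, and the groups again overlapped only through ipsilateral 4. Ipsilateral levels were 68.3%, 25.4% and 53.4% of the contralateral ones in animals 4, 5 and 6. The log2 difference was -1.04 (SE 0.23, 95% interval -1.55 to -0.54), with an unadjusted p of 0.00106 and an adjusted p of 0.333 in limma. Only 6 of the 9519 tested probe sets had a lower difference. Without animal 4 it passed, at -1.30 and an adjusted p of 0.0105 in limma, in a fit in which 2.53% of all tested probe sets passed, and 0.977% passed as lower. Without animal 5 the difference was -0.69, with an adjusted p of 0.9999 in limma, and without animal 6 it was -1.15, with an adjusted p of 0.988 in limma. Each of these fits has 1 residual degree of freedom.

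Both Pdk2 probe sets were lower in all 3 animals, as 15.1% of all tested probe sets were. Their order over animals was the same, with the largest difference in animal 5 (-0.99 and -1.76), then animal 6 (-0.31 and -0.84), then animal 4 (-0.13 and -0.53). The dimmer probe set gave the larger difference in each animal, so the size of the Pdk2 difference depends on the probe set.

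Pdk4 was read by 1 probe set, 1369150_at, with intensities of 174.1, 181.8 and 203.4 in ipsilateral 4, 5 and 6, against 135.5, 219.0 and 162.1 in contralateral 4, 5 and 6. All 3 ipsilateral values lay inside the range of the contralateral ones. Pdk4 was higher ipsilaterally in animals 4 and 6 and lower in animal 5. The log2 difference was 0.13 (SE 0.17, 95% interval -0.25 to 0.51, adjusted p = 0.92 in limma). The interval overlaps that of the brighter Pdk2 probe set (-0.88 to -0.07), but not that of the dimmer one (-1.55 to -0.54). The difference between the kinases was not itself tested.

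**Figure D1:**
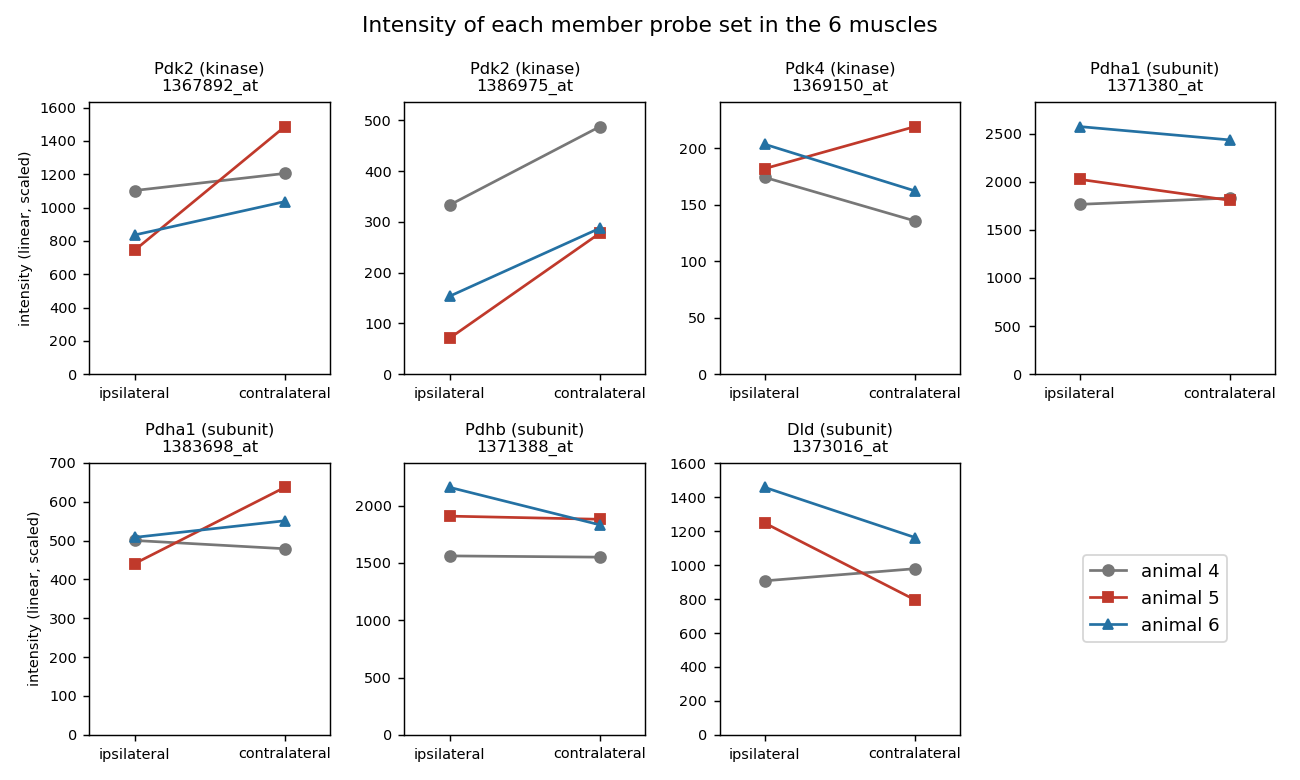
Intensity (linear, scaled by the authors) of each of the 7 member probe sets in the ipsilateral and contralateral muscle, with 1 line per animal and each vertical axis starting at 0. Both Pdk2 panels have 3 lines that are lower ipsilaterally, and animal 5 has the steepest, while Pdk4, Pdha1 and Dld have lines in both directions.

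Among the subunits, Pdha1, the alpha chain that the kinases phosphorylate, had intensities of 1765.6, 2025.3 and 2574.4 in ipsilateral 4, 5 and 6 on its brighter probe set, 1371380_at, against 1831.6, 1807.4 and 2435.4 in contralateral 4, 5 and 6. Both muscles of animal 6 were above those of the other animals, and the groups overlapped. The log2 difference was 0.06 (SE 0.13, 95% interval -0.22 to 0.35, adjusted p = 0.947 in limma).

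The dimmer probe set of Pdha1, 1383698_at, gave 500.2, 440.5 and 508.1 in ipsilateral 4, 5 and 6, against 478.9, 636.9 and 550.9 in contralateral 4, 5 and 6. Its log2 difference was -0.19 (SE 0.16, 95% interval -0.56 to 0.18, adjusted p = 0.859 in limma). The probe sets of Pdha1 had opposite signs in each animal, with 0.16 on the brighter and -0.52 on the dimmer in animal 5, and over the 6 libraries their log2 values correlated at -0.04. No direction is therefore given for Pdha1.

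Pdhb, the beta chain of the same enzyme, had intensities of 1561.1, 1908.0 and 2159.2 in ipsilateral 4, 5 and 6, against 1550.3, 1880.6 and 1831.8 in contralateral 4, 5 and 6. It was the 1 member that was higher in all 3 animals, as 12.3% of all tested probe sets were, but by only 0.0099 and 0.021 on the log2 scale in animals 4 and 5. The log2 difference was 0.09 (SE 0.13, 95% interval -0.21 to 0.38, adjusted p = 0.924 in limma).

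Dld, the dehydrogenase that the complex shares with the 2-oxoglutarate and branched-chain complexes and the glycine cleavage system, had intensities of 907.5, 1248.3 and 1458.4 in ipsilateral 4, 5 and 6, against 979.0, 795.4 and 1162.8 in contralateral 4, 5 and 6. It was higher ipsilaterally by 0.64 in animal 5 and 0.32 in animal 6 on the log2 scale, and differed by -0.11 in animal 4. Its mean log2 difference was 0.29 (SE 0.17, 95% interval -0.09 to 0.66, adjusted p = 0.803 in limma). Of all subunit probe sets it had the largest mean difference and the largest one in a single animal.

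**Figure D2:**
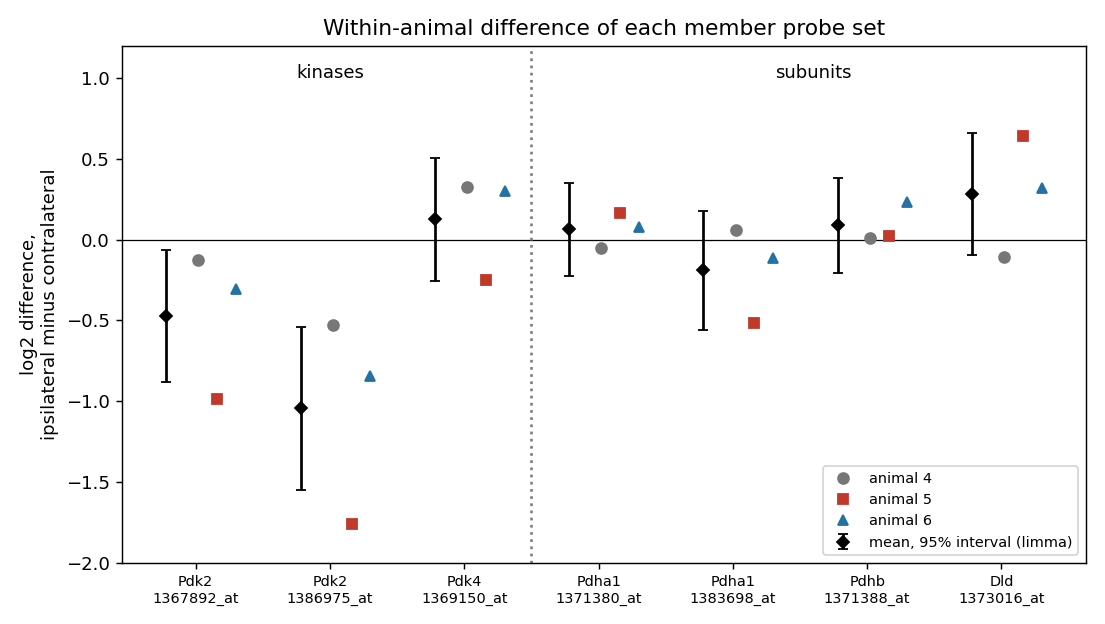
Log2 difference, ipsilateral minus contralateral, of each member probe set, with coloured points for the 3 animals and black diamonds with bars for limma's mean and 95% interval, kinases left of the dotted line and subunits right of it. The intervals of both Pdk2 probe sets lie below 0, and those of Pdk4 and of the 4 subunit probe sets span 0.

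By level, intensities ran from 70.7 to 1486.5 over the 3 kinase probe sets and from 440.5 to 2574.4 over the 4 subunit probe sets. Probe sets differ in how strongly they bind their target, as the pairs for Pdk2 and Pdha1 show, so these levels do not rank the transcripts. The paired difference compares a probe set with itself, although its size also varied between probe sets of a gene. The median difference was -0.47 for the kinase probe sets and 0.08 for the subunit probe sets, beside -0.02 for all tested probe sets. In animals 4, 5 and 6 the kinase median was -0.13, -0.99 and -0.31, and the subunit median -0.02, 0.09 and 0.16. In each animal the kinase median was the value of the brighter Pdk2 probe set, and with the brightest probe set per gene it was -0.17, so it describes Pdk2 and not kinases in general.

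The gap between a kinase and the subunits within a library was taken as the log2 value of the kinase minus the mean log2 value of Pdha1, Pdhb and Dld, each on its brightest probe set. For Pdk2 it was -0.30, -1.17 and -1.25 in ipsilateral 4, 5 and 6, against -0.22, 0.09 and -0.73 in contralateral 4, 5 and 6. The Pdk2 gap was thus lower in each ipsilateral muscle than in its partner, by a mean change of -0.62 ± 0.60 (SD, n = 3), of which animal 4 had -0.08 and animal 5 had -1.26. For Pdk4 the gap was -2.86, -3.11 and -3.21 in ipsilateral 4, 5 and 6, against -3.23, -2.59 and -3.30 in contralateral 4, 5 and 6. Its change was 0.38, -0.52 and 0.09 in animals 4, 5 and 6, with a mean of -0.02 ± 0.46. With 3 pairs an exact sign-flip permutation test cannot give a two-sided p below 0.25, and none was run.

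**Figure D3:**
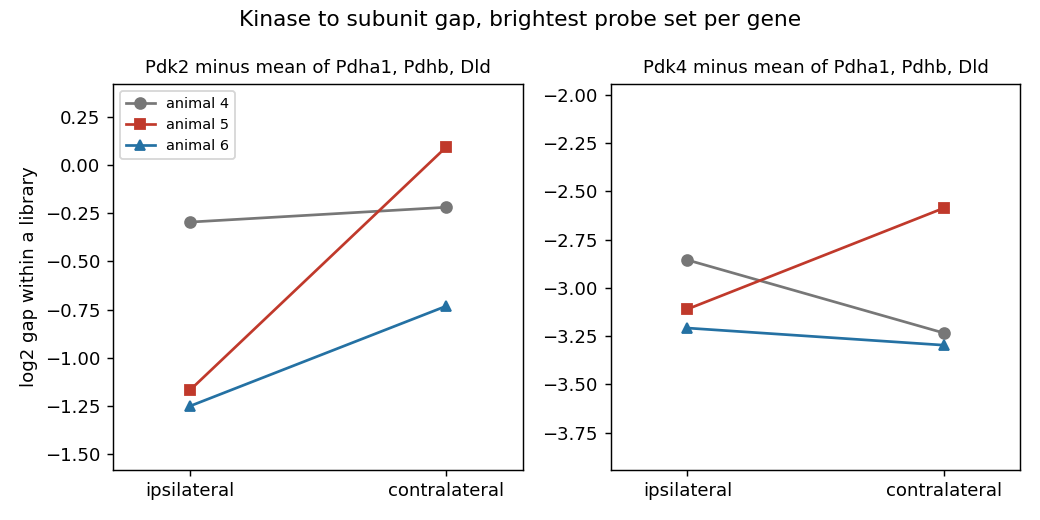
Log2 gap between Pdk2 (left) or Pdk4 (right) and the mean of Pdha1, Pdhb and Dld in the same library, with 1 line per animal and both vertical axes spanning the same range. The Pdk2 gap is lower in the ipsilateral muscle of all 3 animals, by little in animal 4, and the Pdk4 lines run in both directions.

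Over the 6 libraries, log2 values of the brighter Pdk2 probe set correlated (Pearson's r) at 0.80 with the dimmer one, at -0.01 with Pdk4 and at -0.89 with Dld. The dimmer Pdk2 probe set correlated at -0.48 with Pdk4 and at -0.62 with Dld. The brighter Pdha1 probe set correlated at 0.85 with Dld and 0.74 with Pdhb, whereas the dimmer one correlated at -0.52 with Dld and 0.17 with Pdhb. Pdk4 correlated at 0.71 with Pdhb. The genes whose log2 values ran most like Pdk2 were Oaz1 (r = 0.99), Plcl2 (0.99) and Chac1 (0.99). For Pdk4 they were Fads2 (0.99), Cttn (0.98) and Blvra (0.97), and for Pdha1 they were Vps29 (0.99), Gng11 (0.98) and the fast myosin gene Myh1 (0.98). These are descriptions over 6 libraries that share animals, and the best of 9519 probe sets were picked.

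Of 7 further genes of the complex and its control, 6 had a probe set and 3 were bright enough to test, with 0 past the adjusted threshold and 0 at an unadjusted p under 0.05 in limma. Pdk1, another kinase, had intensities of 138.8, 243.9 and 193.9 in ipsilateral 4, 5 and 6, against 151.3, 124.1 and 156.9 in contralateral 4, 5 and 6. Its log2 difference was 0.35 (SE 0.20), with 0.89 in animal 5 where Pdk2 was lowest, and its dimmer probe set gave 0.04. The phosphatase Pdp1 differed by 0.13 (SE 0.15), and Pdhx, the protein that anchors Dld in the complex, by -0.19 (SE 0.19).

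The remaining kinase and phosphatase genes were too dim to test. Pdk3 had a mean intensity of 32.0 ± 2.3 ipsilaterally and 26.5 ± 4.42 contralaterally, and the phosphatase Pdp2 33.7 ± 10.3 ipsilaterally and 43.8 ± 8.02 contralaterally (SD, n = 3 each). Pdha2, the alpha chain gene of the testis, was between 0.6 and 2.1 in ipsilateral and between 0.9 and 2.6 in contralateral libraries, among the lowest intensities on the arrays.

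Genes that supply or use pyruvate had no common direction. Of 19 genes, 16 had a probe set and 15 were tested, 0 passed the adjusted threshold, and at an unadjusted p under 0.05 in limma 1 was higher and 2 were lower, where 3.57% of all tested probe sets were higher and 2.78% lower. The median log2 difference was -0.03. Ldhb, the lactate dehydrogenase chain of oxidative muscle and heart, had intensities of 896.2, 1970.2 and 1972.3 in ipsilateral 4, 5 and 6, against 802.8, 947.1 and 1225.3 in contralateral 4, 5 and 6. Its log2 difference was 0.63 (SE 0.18, adjusted p = 0.545 in limma). Slc16a3, a lactate exporter of fast fibres, differed by -0.55 (SE 0.18, adjusted p = 0.586 in limma), and Me1, the cytosolic malic enzyme, by -0.45 (SE 0.15, adjusted p = 0.641 in limma). All 3 had 1 direction in the 3 animals, but they were named for the smallest p of this list, which favours a shared direction. Of all tested probe sets, 12.3% were higher and 15.1% lower in all 3 animals. The dimmer Me1 probe set differed by -0.27 (SE 0.18) and was higher in animal 4, by 0.067.

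The sister complexes that use Dld or a lipoyl arm, with the lipoylation enzymes, had a median of -0.06 over 9 tested of 15 genes, and 0 had an unadjusted p under 0.05 or passed the adjusted threshold. Bckdhb, a subunit of the branched-chain complex, differed by -0.21 (SE 0.15), its kinase Bckdk by -0.24 (SE 0.18) and Bckdha by 0.18 (SE 0.17). Among transcription regulators known to act on Pdk4, 10 of 17 genes were tested, with a median of -0.08 and 0 past the adjusted threshold. At an unadjusted p under 0.05 in limma 2 were lower, where 2.78% of all tested probe sets were lower. Rxrg, a retinoid X receptor of muscle, had intensities of 363.8, 264.6 and 334.0 in ipsilateral 4, 5 and 6, against 513.5, 416.6 and 437.7 in contralateral 4, 5 and 6, with no overlap, as in 5.78% of all tested probe sets in this direction. Its log2 difference was -0.49 (SE 0.15, adjusted p = 0.558 in limma). Nr4a1, an activity-dependent nuclear receptor, differed by -0.43 (SE 0.18), and Rxra by -0.63 (SE 0.33) with 0.44 in animal 4 and -1.70 in animal 6.

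Fatty acid genes that are induced together with Pdk4 in fasting had a median of 0.16 over 20 tested of 21 genes. At an unadjusted p under 0.05 in limma 2 were higher and 0 lower, and 0 passed the adjusted threshold. Of all tested probe sets, 3.57% were higher and 2.78% lower at that unadjusted level. Named for the smallest p of this list were Cd36, Lpl and Acadl. Cd36, a fatty acid transporter, differed by 0.57 (SE 0.17), Lpl, lipoprotein lipase, by 0.45 (SE 0.19) and the dehydrogenase gene Acadl by 0.35 (SE 0.17). In animal 4 Lpl differed by -0.14. Ucp3 (-0.37, SE 0.18) and Ucp2 (-0.33, SE 0.17) of the same list went the other way. Adipocyte markers had a median log2 difference of 0.52 over 4 tested genes. Those too dim to test differed by 0.15 (Plin1), -0.06 (Lipe) and -0.04 (Lep). The part of adipocytes in the differences of the fatty acid genes was not tested. In animals 4, 5 and 6 the median of the fatty acid genes was -0.05, 0.32 and 0.25, whereas Pdk4 differed by 0.33, -0.25 and 0.30.

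Fibre-type genes are given beside Pdk2 because the animals differed in them. The slow-twitch list had a median log2 difference of 1.12 over 10 genes, with 0.19, 1.98 and 1.17 in animals 4, 5 and 6, and 9 were higher at an unadjusted p under 0.05 in limma while 0 passed the adjusted threshold. The fast-twitch list had a median of -0.28 over 12 tested of 13 genes, with -0.22, -0.56 and -0.12 in animals 4, 5 and 6. At that unadjusted level 5 were lower, where 3.57% of all tested probe sets were higher and 2.78% lower. The largest Pdk2 difference was in the animal with the largest fibre-type medians, animal 5. That animal also had the largest differences of Dld (0.64), Pdk1 (0.89) and Slc16a3 (-1.09). Pdk2 and the slow-twitch median differed more in animal 6 than in animal 4, whereas the fast-twitch median differed more in animal 4. The genes named from these lists by their smallest p were Csrp3 (1.64, SE 0.32), Myl2 (1.01, SE 0.19), Tnnc1 (0.92, SE 0.19), Myh4 (-0.92, SE 0.19), Actn3 (-0.48, SE 0.13) and Mybpc2 (-0.39, SE 0.13). The part of fibre type in the Pdk2 difference was not tested.

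**Figure D4:**
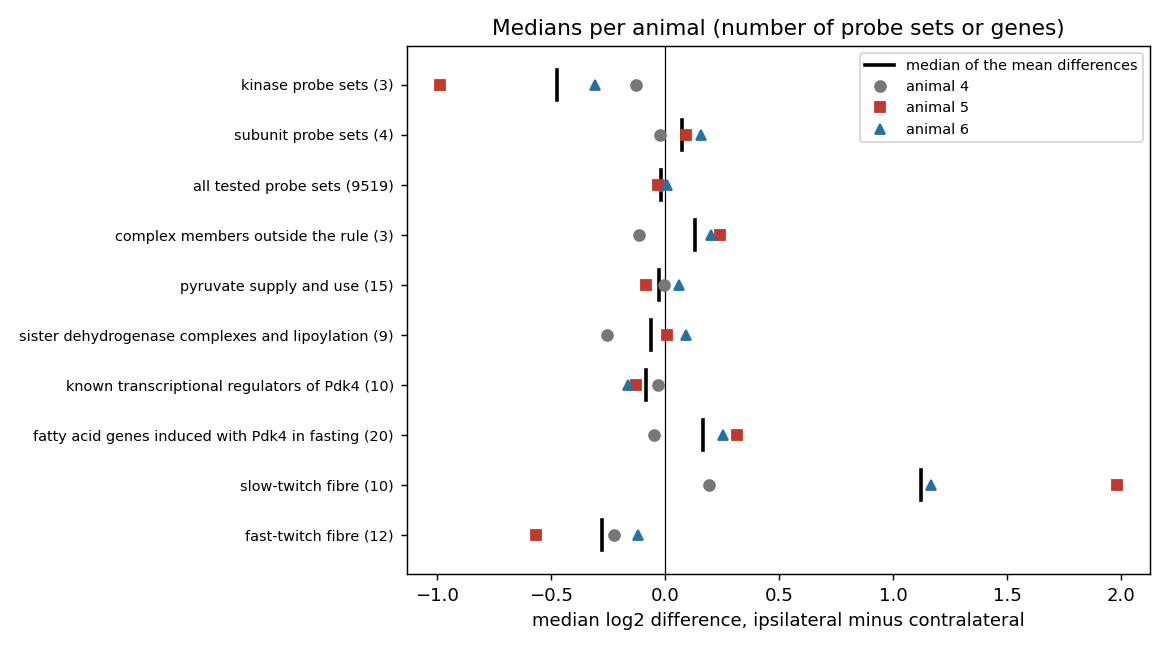
Median log2 difference, ipsilateral minus contralateral, for the kinase and subunit probe sets, all tested probe sets and each gene list, with coloured points for the animals and a black bar for the median of the mean differences; numbers in brackets are probe sets or tested genes. The kinase median, which is the value of the brighter Pdk2 probe set, is at -0.99 in animal 5, where the slow-twitch median is at 1.98. Subunit medians stay between -0.02 and 0.16, although single subunit probe sets run from -0.52 to 0.64 in animal 5.

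Skeletal muscle markers were the brightest of the cell-type lists, with summed intensities of 37123 to 42598 in ipsilateral and 41872 to 51463 in contralateral libraries over the 7 of 8 genes with a probe set. Markers of other cells differed between the muscles of an animal too. The sum over 7 of 9 adipocyte markers ran from 1639 to 2566 ipsilaterally and from 1206 to 1789 contralaterally, mostly through Fabp4 and Cfd, while Lep lay between 2.0 and 3.9 in all libraries. The sum over 9 of 10 macrophage and immune markers ran from 3144 to 4568 ipsilaterally and from 4523 to 4892 contralaterally. In animal 4 it was nearly the same in both muscles, 4568 ipsilaterally and 4523 contralaterally. The sum over 4 spermatid markers ran from 172.6 to 1022 ipsilaterally, highest in animal 4, and from 82.8 to 286 contralaterally. Median log2 differences were 1.31 for spermatid markers (1.61, 0.98 and 1.34 in animals 4, 5 and 6) and 0.52 for adipocyte markers (0.46, 0.67 and 0.64). Macrophage and immune markers had -0.29 (-0.0004, -0.35 and -0.51), and skeletal muscle markers -0.21 (-0.30, -0.48 and 0.07). The skeletal muscle list shares Tnnt3, Tnni2, Actn3 and Tnnc2 with the fast-twitch list, so its median is not a separate reading of muscle content. The medians were 0.18 for endothelial, 0.30 for Schwann cell, -0.24 for smooth muscle and -0.13 for erythroid markers. For fibroblast and tendon markers the median was 0.22, with 0.26, -0.14 and 0.05 in animals 4, 5 and 6. None of the markers with a probe set was listed at 0, and their part in the member differences was not tested. A sign of RNA quality, the signal at the 3' end of beta-actin over that at its middle, was 2.87 in ipsilateral 6 and 2.77 in contralateral 4, against 1.36 to 1.68 in the other libraries. Ipsilateral 5, which had the lowest value on both Pdk2 probe sets, had a ratio of 1.53, and contralateral 5 had 1.54. For Gapdh the 3' over middle ratio was 1.21 in ipsilateral 5, the highest of the 6 libraries, against 1.02 in contralateral 5, the lowest, and the 3' over 5' ratio was 1.16 in ipsilateral 5 against 1.02 in contralateral 5, again the highest and the lowest. The part of RNA quality in the Pdk2 difference was not tested.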

How the data were processed

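Total RNA of 6 tibialis anterior muscles was hybridised to 1 array each. The authors deposited linear intensities for 15923 probe sets. Leaving out the lowest and highest 2%, their mean was 150.05 on each array, which shows a scaling to a common level. The software behind them is not stated in any source used here. Left out were 57 control probe sets. Symbols came from GEO's platform table, which may be outdated. It held a single symbol for 12789, more than 1 for 312 and nothing for 2822. Gene IDs of 12754 matched a gene table of assembly GRCr8, which served for names alone.

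A pseudocount of 15.8 (the 20th percentile) was added before log2. Array medians differed by at most 0.115, under a limit of 0.2 for median centring, and were left as they were. The 9519 probe sets whose mean log2 value exceeded the 40th percentile (an intensity of 42.4) were tested in limma 3.58.1 under R 4.3.3 with animal as a fixed block, an intensity trend in eBayes and Benjamini-Hochberg adjustment. The fit had 2 residual and 7.47 prior degrees of freedom, and the number of arrays limits its precision. The code was tested on simulated data with a common spread and no animal effect, so that run does not cover the unequal spread or the pairing of these data. Plots were made in matplotlib 3.10.9 (Python 3.11.15).

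Titles gave group and animal, with Cont read as contralateral. Pairing rests on the design, since an animal supplied both muscles. After subtraction of group means, paired muscles correlated at -0.04, 0.07 and 0.13 in animals 4, 5 and 6, over probe sets.

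Members and gene lists (7 of pathways and fibre types, 9 of cell types) were chosen with earlier results of these data known. Named were all members, all further complex genes, the 3 genes with the smallest p of each other pathway list, and the 3 genes most correlated with Pdk2, Pdk4 and Pdha1. A list was read on the brightest probe set per gene and had no set test. Alternatives changed the block, pseudocount, normalization, filter, variance prior or probe set, or left out 1 animal.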

Additional observations from a re-analysis of the deposited data

How the results depend on the processing

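The 7 member differences kept their sign under all 11 alternatives. Those that changed only the block, the filter or the variance prior leave a difference as it is, so they could not test its sign. The only change of call among the members was that of the dimmer Pdk2 probe set, at -1.30 without animal 4 (adjusted p = 0.0105 in limma). Leaving out 1 animal, it ranged from -1.30 to -0.69, and the brighter Pdk2 probe set from -0.65 to -0.22. The count of called probe sets was 0 to 241 with 1 animal left out, 241 without animal 4, and 0 under each other alternative. Without the pairing by animal (no replicate block), 0 were called, 564 stood at an unadjusted p under 0.05, and adjusted p-values began at 0.302. As 0 probe sets were called with or without the block, the unchanged calls of the members do not show whether the pairing matters. Without the block the adjusted p of both Pdk2 probe sets was 0.835 in limma, against 0.73 and 0.333 with it. The leave-one-out range was -0.65 to -0.22 for the kinase median, 0.04 to 0.12 for the subunit median, -0.89 to -0.30 for the change of the Pdk2 gap and -0.22 to 0.23 for that of the Pdk4 gap, whose sign is therefore not settled. Among the other named genes, Pdhx ranged from -0.40 to 0.043 and Bckdha from -0.0044 to 0.36 with 1 animal left out, Pdhx turning positive without animal 4 and Bckdha negative without animal 6. In limma 7 passed without animal 4 only, which were Ldhb, Rxra, Lpl, Myl2, Csrp3, Tnnc1 and Myh4. Rxra did so at an adjusted p of 0.0499 in limma on a dim probe set, with an intensity of 12.5 in ipsilateral 6. With all animals, the Rxra difference was -0.86 with the pseudocount at the 5th percentile and -0.41 with it at the 40th. The causes were not tested. With 3 pairs, differences of the size seen in the subunits could not be told from 0.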
